A study of Mus musculus with 18 samples.

Results

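The genes described here are *Trp53*, which encodes the transcription factor p53, 7 genes around it (*Mdm2*, *Cdkn1a*, *Ccng1*, *Sesn2*, *Bax*, *Bbc3*, and *Eda2r*), and the neighbouring genes *Cdkn2a* and *Cdkn2b*. These 10 genes were chosen by name among the 20878 genes of the expression matrix, and all 10 were measured in all 18 tumors. The tumors grew from K7M2 cells, a mouse osteosarcoma line of Balb/c origin, which carried either a control shRNA (ATRX CT) or an shRNA against *Atrx* (ATRX KD). They were grafted under the skin of female Balb/c mice, whose immune system is intact and which are syngeneic with the line, or of female NSG mice (NOD.Cg-Prkdc scid Il2rg tm1Wjl/SzJ), which lack T, B, and NK cells. There were 4 ATRX CT tumors (mice 41, 43, 44, and 45) and 4 ATRX KD tumors (mice 56, 58, 59, and 60) in Balb/c mice, and 5 ATRX CT tumors (mice 1 to 5) and 5 ATRX KD tumors (mice 26 to 30) in NSG mice. Each tumor came from a different mouse, so the p-values measure the spread between mice. Whole cages received 1 kind of cell and the tumor labels give no cage, so cage and knock-down cannot be told apart, nor can the knock-down and other differences between the cell populations that carried each shRNA.

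p53 accumulates when DNA is damaged or a cell is stressed, and then switches on genes that stop the cell cycle, repair damage, or start apoptosis. *Mdm2* is both its target and its main inhibitor, since the MDM2 ligase marks p53 for degradation. *Cdkn2a* encodes p16Ink4a, which inhibits the kinases CDK4 and CDK6, and, from another first exon and reading frame, p19Arf, which binds MDM2 and thereby spares p53. *Cdkn2b* encodes p15Ink4b, a further inhibitor of CDK4 and CDK6. ATRX is a chromatin remodeler that places histone H3.3 in repeats and telomeres.

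The start regions of these genes were read from RefSeq (build GRCm38.p6, the same assembly as the mm10 coordinates of the deposited annotation). A half-site of the p53 consensus, searched by its usual consensus, which reads the same on both strands, in 250 bases before and 50 after each start, was found for 5 of the 10 genes, in 5 of their 14 windows, against 8.36% of all 32851 such windows. *Cdkn1a* held a pair of half-sites 12 bases apart, at −73 and −51 from the first of its 2 annotated starts (chr17:29090979, with the other at 29093769). The 10 bases right after the half-site at −51 missed the consensus only at their first letter and were not counted. The pair and its spacing therefore rest on a strict match of letters, and do not show which bases p53 binds. A pair within 13 bases was found in 24 windows, or 0.0731% of all. The stretches before the start that hold the matches are shown because they carry this difference between the genes, with each half-site in capitals.
*Cdkn1a* (chr17:29090829-29090978, plus strand): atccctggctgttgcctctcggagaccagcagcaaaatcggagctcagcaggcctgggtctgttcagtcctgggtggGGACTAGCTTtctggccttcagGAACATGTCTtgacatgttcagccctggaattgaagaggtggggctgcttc
*Mdm2* (chr10:117710910-117710969, minus strand): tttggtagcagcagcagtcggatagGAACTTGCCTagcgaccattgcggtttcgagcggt
*Ccng1* (chr11:40755437-40755496, minus strand): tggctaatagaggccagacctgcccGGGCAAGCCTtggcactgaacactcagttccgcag
*Bax* (chr7:45467065-45467124, minus strand): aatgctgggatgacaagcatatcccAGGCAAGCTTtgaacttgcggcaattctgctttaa
*Trp53* (chr11:69580259-69580318, plus strand): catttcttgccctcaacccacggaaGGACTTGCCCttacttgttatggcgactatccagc
The windows of *Bbc3*, *Sesn2*, *Eda2r*, *Cdkn2a*, and *Cdkn2b* held no match to these letters, which says nothing of sites elsewhere in the genes.

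The 3 genes that differed upon knock-down in NSG mice were among those without a match, where 5 of the 10 genes had one. A link between matches and levels was not tested. The 150 bases before the starts of these 3 genes are shown with each CG pair, the unit of DNA methylation, in capitals, since the 4 start regions differed in these pairs. *Cdkn2a* has a start for p19Arf, with 22 CG pairs, and a start for p16Ink4a, with 2 CG pairs, while *Cdkn2b* had 8 and *Eda2r* 4.
p19Arf start of *Cdkn2a* (chr4:89294620-89294769, minus strand): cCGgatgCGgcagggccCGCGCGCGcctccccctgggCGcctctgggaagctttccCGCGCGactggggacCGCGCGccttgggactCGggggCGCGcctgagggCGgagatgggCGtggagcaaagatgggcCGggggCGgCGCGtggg
p16Ink4a start of *Cdkn2a* (chr4:89282193-89282342, minus strand): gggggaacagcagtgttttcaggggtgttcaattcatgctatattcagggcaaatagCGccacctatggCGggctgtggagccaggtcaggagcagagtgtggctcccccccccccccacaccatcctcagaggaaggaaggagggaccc
*Cdkn2b* (chr4:89311033-89311182, minus strand): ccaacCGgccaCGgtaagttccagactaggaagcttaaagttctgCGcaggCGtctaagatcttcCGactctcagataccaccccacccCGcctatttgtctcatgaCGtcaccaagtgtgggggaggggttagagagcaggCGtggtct
*Eda2r* (chrX:97377210-97377359, minus strand): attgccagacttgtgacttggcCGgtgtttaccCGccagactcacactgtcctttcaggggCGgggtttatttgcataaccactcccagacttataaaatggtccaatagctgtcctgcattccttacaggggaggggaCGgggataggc
Over all windows the median was 4 CG pairs, and 4.11% of windows held at least as many as the p19Arf start. DNA methylation was not measured in these tumors.

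Values are given as FPKM, fragments relative to transcript length and library depth, which allows levels of different genes to be compared. In every group *Ccng1*, a cyclin-like p53 target, had the highest mean and *Bax*, a pore-forming inducer of apoptosis, the next. Over all tumors they ranged from 123 to 301 FPKM and from 108 to 248 FPKM, and the ranges of the pair overlapped in each group. *Cdkn1a*, which encodes the cell cycle inhibitor p21, came to between 54.1 and 118 FPKM, *Trp53* to between 47.2 and 84.2 FPKM, and *Mdm2* to between 45.8 and 78.8 FPKM. Neighbours among these 3 overlapped in all groups but 2, as *Trp53* lay above *Mdm2* without overlap in Balb/c ATRX KD tumors and *Cdkn1a* above *Trp53* without overlap in NSG ATRX KD tumors. *Sesn2*, a stress-responsive inhibitor of mTORC1, was between 16.8 and 38.1 FPKM, and *Eda2r*, a receptor of the TNF receptor superfamily, between 10.7 and 33.5 FPKM. *Bbc3*, which encodes the BH3-only protein PUMA, was between 5.46 and 13.2 FPKM. *Cdkn2b* and *Cdkn2a* were lowest, at 0.655 to 3.03 FPKM and 0.0773 to 3.57 FPKM. At these levels, a *Cdkn2a* value in an NSG ATRX KD tumor rested on an estimated 1.52 to 6.52 fragments.

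**Figure D1:**
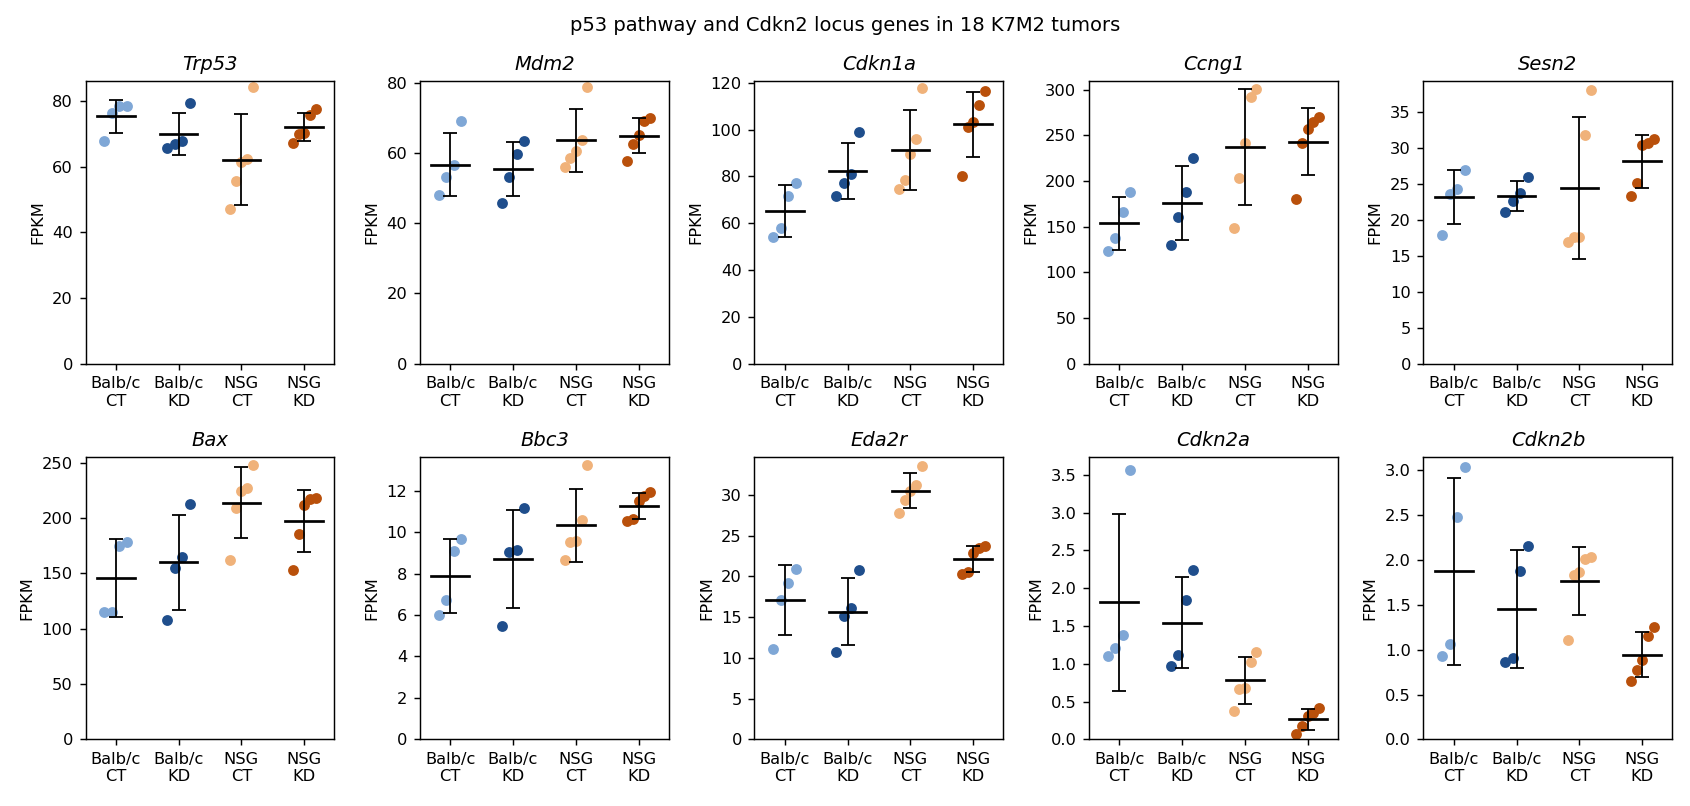
FPKM (linear axes from 0) of the 10 genes in each of the 18 tumors, by host and shRNA. Points are tumors, the thick bar is the group mean, and the thin bar the SD. *Eda2r* in NSG ATRX KD tumors (20.3 to 23.7 FPKM) lies below all NSG ATRX CT tumors (27.7 to 33.5 FPKM), and *Cdkn2a* is lowest in NSG ATRX KD tumors.

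*Atrx*, the target of the shRNA, was measured at 17.6 ± 7.12 FPKM in ATRX CT and 14.0 ± 6.54 FPKM in ATRX KD tumors of Balb/c mice (SD, n = 4 each), with overlap (log2 fold change −0.34, SE 0.36, adjusted p = 0.999 in limma). In NSG mice it was at 17.6 ± 4.99 and 10.2 ± 3.47 FPKM (SD, n = 5 each; log2 fold change −0.74, SE 0.22, adjusted p = 0.0610 in limma). The RNA therefore did not check the shRNA labels in Balb/c mice, and in NSG mice mouse 27 (16.4 FPKM) lay within the ATRX CT range. The study reported extinction of ATRX protein by Western blot in the K7M2 cells that carried the shRNA. Of the cell type lists, the T cell genes summed to 27.3 to 52.0 FPKM in Balb/c and 1.36 to 7.11 FPKM in NSG tumors, without overlap, while B cell genes were low in both hosts, at 2.53 to 3.85 FPKM and 2.79 to 8.44 FPKM. The osteosarcoma and osteoblast list summed to 613 to 1395 FPKM over all tumors, with *Ibsp* and *Bglap2* listed at 0 in every Balb/c ATRX KD tumor, *Bglap* in every Balb/c ATRX CT tumor, and *Ibsp* in every NSG ATRX KD tumor. Estimated depth was 15150000 to 25600000 fragments per library. Libraries also differed in the slope of level along transcript length, from −0.15 to 0.21 log2 units per doubling over all tumors, and each group held slopes below and above 0. In each group, the tumors with slopes above 0, mouse 27 among them, had the highest *Atrx*, whose transcript has 10244 nt. NSG tumors with slopes below 0 had 11.6 to 20.5 FPKM of *Atrx* in ATRX CT and 8.42 to 8.88 FPKM in ATRX KD. The part of the slope in the *Atrx* values was not tested.

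In Balb/c mice, the first comparison asked whether knock-down of *Atrx* goes with another level of these genes when the host is immunocompetent. None of the 10 genes passed the test, and none separated the groups in the deposited values. *Cdkn1a* had the largest log2 difference of the 10. It was measured at 71.5, 57.8, 77.3, and 54.1 FPKM in ATRX CT tumors and at 77.1, 99.1, 81.1, and 71.8 FPKM in ATRX KD tumors. The ATRX KD tumors of mice 58 and 59 exceeded every ATRX CT tumor, whereas those of mice 56 and 60 lay within the ATRX CT range. The means were 65.2 ± 11.0 and 82.3 ± 11.8 FPKM (SD, n = 4 each), and the log2 fold change was 0.34 (SE 0.16, 95% interval −0.02 to 0.69, adjusted p = 0.999 in limma; exact permutation test, two-sided, p = 0.0857, where 0.0286 was the smallest possible). With the trend along transcript length removed from each library, the groups did not overlap for *Cdkn1a*, as for 4.00% of all genes, and it did not pass (log2 fold change 0.33, adjusted p = 0.711 in limma).

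For the other genes in Balb/c mice, p53 itself came first. *Trp53* was at 75.3 ± 5.08 FPKM in ATRX CT and 70.0 ± 6.31 FPKM in ATRX KD tumors (log2 fold change −0.11, 95% interval −0.37 to 0.15), and its inhibitor *Mdm2* at 56.6 ± 8.92 and 55.5 ± 7.70 FPKM (−0.03, −0.37 to 0.31). The intervals for the targets *Ccng1* (−0.28 to 0.64), *Sesn2* (−0.31 to 0.35), *Bax* (−0.42 to 0.67), *Bbc3* (−0.39 to 0.62), and *Eda2r* (−0.65 to 0.41) also held 0. So did those of *Cdkn2a* (−0.70 to 0.50) and *Cdkn2b* (−0.83 to 0.44). Differences of up to these bounds were not excluded by 4 tumors a group. The test called 1 of 14701 genes in this comparison (0.00680%), with 609 at an unadjusted p under 0.05, and 3.18% of genes separated the groups, so the counts of 0 among 10 genes lay near the background. The study's own DESeq analysis reported more genes between these groups. Its test differed from limma on FPKM, its input and thresholds may have differed too, and their part was not tested.

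In NSG mice, which lack lymphocytes, 3 of the 10 genes were lower in ATRX KD tumors and 0 were higher. They were *Eda2r*, *Cdkn2b*, and *Cdkn2a*. Of 14654 genes tested in this comparison, 3.05% were called lower and 3.73% higher. *Trp53* and the cell cycle and apoptosis targets did not pass. The median log2 fold change was 0.05 over the 10 genes and −0.0014 over all genes.

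*Eda2r* was measured at 31.3, 29.4, 30.4, 33.5, and 27.7 FPKM in NSG ATRX CT tumors and at 22.8, 20.3, 23.5, 23.7, and 20.5 FPKM in NSG ATRX KD tumors. Every ATRX KD tumor was below every ATRX CT tumor, and *Eda2r* was the 1 gene of the 10 without overlap, where 7.50% of all genes had none. The means were 30.5 ± 2.16 and 22.2 ± 1.63 FPKM (SD, n = 5 each), and *Eda2r* fell by 0.44 on the log2 scale (SE 0.08, adjusted p = 0.0150 in limma; exact permutation test, two-sided, p = 0.00794, the smallest possible). The receptor gene is annotated at chrX:97333841-97377209 (mm10, minus strand). Without the ATRX KD tumor of mouse 30, the adjusted p for *Eda2r* was 0.0550 in limma.

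*Cdkn2b* was measured at 1.87, 2.01, 2.03, 1.83, and 1.11 FPKM in NSG ATRX CT tumors and at 1.25, 0.772, 0.887, 1.15, and 0.655 FPKM in NSG ATRX KD tumors. The ATRX CT tumor of mouse 5 lay within the ATRX KD range, and the 4 others lay above it. *Cdkn2b* fell by 0.51 on the log2 scale (SE 0.12, adjusted p = 0.0365 in limma; exact permutation test, two-sided, p = 0.0238), from 1.77 ± 0.380 to 0.943 ± 0.252 FPKM (SD, n = 5 each).

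*Cdkn2a* was measured at 0.669, 0.379, 1.16, 1.02, and 0.675 FPKM in NSG ATRX CT tumors and at 0.411, 0.309, 0.181, 0.355, and 0.0773 FPKM in NSG ATRX KD tumors. Only the ATRX CT tumor of mouse 2 lay within the ATRX KD range, and the ATRX KD tumor of mouse 30 was under the 0.152 FPKM that 3 fragments would give. *Cdkn2a* fell by 0.48 on the log2 scale (SE 0.12, adjusted p = 0.0441 in limma; exact permutation test, two-sided, p = 0.0159), from 0.780 ± 0.309 to 0.267 ± 0.136 FPKM (SD, n = 5 each), a ratio of means of 0.342. A pseudocount of 1 understates the change of such low genes, and with 0.1 the log2 fold change was −1.28 for *Cdkn2a* and −0.85 for *Cdkn2b*. The deposited value sums the transcripts for p16Ink4a and p19Arf, which cannot be told apart here.

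The calls of the pair at the Cdkn2 locus stood close to the threshold. Adjusted p in limma for *Cdkn2a* was 0.0769, 0.104, 0.0700, 0.0618, 0.110, 0.0744, and 0.122 without mouse 1, 4, 5, 27, 28, 29, and 30, respectively. For *Cdkn2b* it was 0.0783, 0.0613, 0.0851, 0.0635, 0.0901, 0.0598, and 0.106 without mouse 1, 2, 4, 27, 28, 29, and 30. With the spread estimated over all 4 groups, none of the 3 genes passed (adjusted p in limma of 0.0961 for *Eda2r*, 0.138 for *Cdkn2b*, and 0.146 for *Cdkn2a*). Over all alternatives, the adjusted p in limma ran from 0.00161 to 0.0961 for *Eda2r*, from 0.00927 to 0.138 for *Cdkn2b*, and from 0.00215 to 0.146 for *Cdkn2a*.

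Among the genes that did not pass in NSG mice, *Trp53* was at 47.2, 84.2, 62.4, 55.6, and 61.4 FPKM in ATRX CT tumors and at 77.5, 70.2, 70.0, 67.1, and 75.6 FPKM in ATRX KD tumors. Apart from the ATRX CT tumor of mouse 2, each ATRX CT tumor was below each ATRX KD tumor (log2 fold change 0.23, 95% interval −0.06 to 0.52, adjusted p = 0.283 in limma). *Sesn2* had 2 high ATRX CT tumors, at 31.7 FPKM in mouse 2 and 38.1 FPKM in mouse 3, and the 3 others at 16.8 to 17.6 FPKM, against 23.2 to 31.2 FPKM in ATRX KD tumors (0.27, −0.21 to 0.76). *Cdkn1a* was at 91.2 ± 17.0 and 102 ± 13.8 FPKM (0.17, −0.13 to 0.47). The intervals of *Mdm2* (−0.19 to 0.26), *Ccng1* (−0.36 to 0.49), *Bax* (−0.42 to 0.19), and *Bbc3* (−0.11 to 0.37) held 0 as well.

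**Figure D2:**
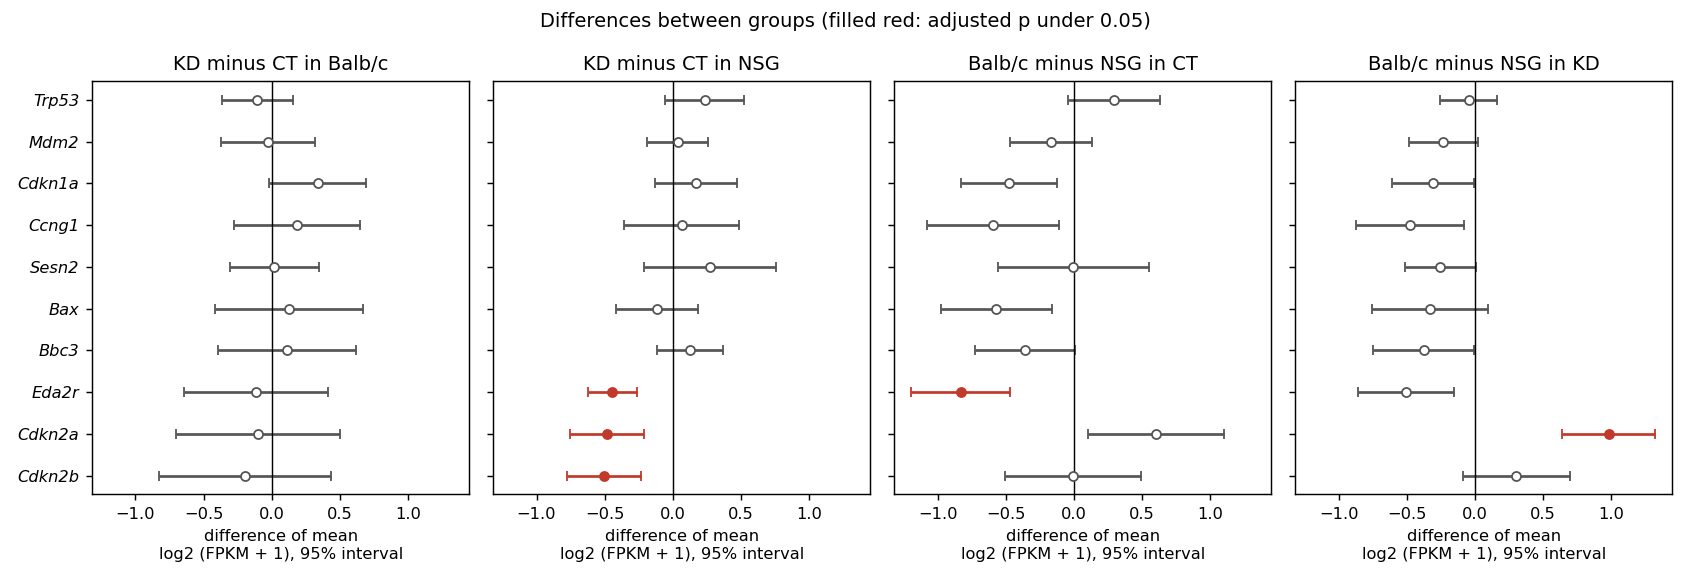
Difference of mean log2 (FPKM + 1) between groups for the 10 genes in 4 comparisons, with the 95% interval in limma; filled red points passed the test. Upon knock-down, intervals of *Eda2r*, *Cdkn2a*, and *Cdkn2b* lie below 0 in NSG mice and all 10 hold 0 in Balb/c mice.

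Some markers of other cell types also differed with the knock-down in NSG tumors, and in bulk RNA fewer cells of a type and less RNA per cell cannot be told apart. The 10 macrophage markers summed to 1891 to 2825 FPKM in ATRX CT and 1435 to 2103 FPKM in ATRX KD tumors, with 2 of 10 called lower. The 10 endothelial markers summed to 29.1 to 70.9 and 61.0 to 86.7 FPKM, with 3 of 10 called higher. Both sums overlapped between the groups, and of all genes 3.05% were called lower and 3.73% higher. No marker of the other 8 lists passed, and skeletal muscle markers reached 342 FPKM in 1 ATRX CT tumor and 451 FPKM in 1 ATRX KD tumor. Their part in the lower *Eda2r*, *Cdkn2a*, and *Cdkn2b* was not tested.

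Around the Cdkn2 locus, *Cdkn2a* (chr4:89274473-89294619) and *Cdkn2b* (chr4:89306289-89311032) lie on the minus strand, 11669 bases apart. The matrix held 23 genes within 1 Mb, of which 11 averaged 0.1 FPKM or more over all tumors. *Mtap*, the neighbouring methionine salvage gene, averaged 114 FPKM and *Klhl9*, an adaptor of a ubiquitin ligase, 73.6 FPKM, far above the pair of inhibitors. In NSG mice, *Mtap* was at 110 ± 23.8 FPKM in ATRX CT and 133 ± 17.4 FPKM in ATRX KD tumors (log2 fold change 0.28, SE 0.16, adjusted p = 0.299 in limma). *Hacd4*, a gene of fatty acid elongation, fell by 0.56 on the log2 scale (SE 0.10, adjusted p = 0.0149 in limma), from 43.2 ± 3.37 to 29.1 ± 3.99 FPKM. It was called together with *Cdkn2a* and *Cdkn2b*, whereas *Focad*, *Klhl9*, *Ifnb1*, *Ifne*, LOC106557447, *Gm12603*, and *Mtap* between or beside them were not (adjusted p = 0.175 to 0.836 in limma). *Gm12610*, on the plus strand, spans *Cdkn2b* and shares 4744 bases with it. It averaged 0.128 FPKM over all tumors. In NSG mice its means were 0.148 FPKM in ATRX CT and 0.0429 FPKM in ATRX KD tumors, under the filter of that comparison. In Balb/c mice they were 0.146 and 0.193 FPKM. The sources used here do not say whether strand was used in quantification, so reads of *Gm12610* and *Cdkn2b* may be mixed. The 12 remaining genes, among them the interferon alpha genes, had means under 0.1 FPKM.

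**Figure D3:**
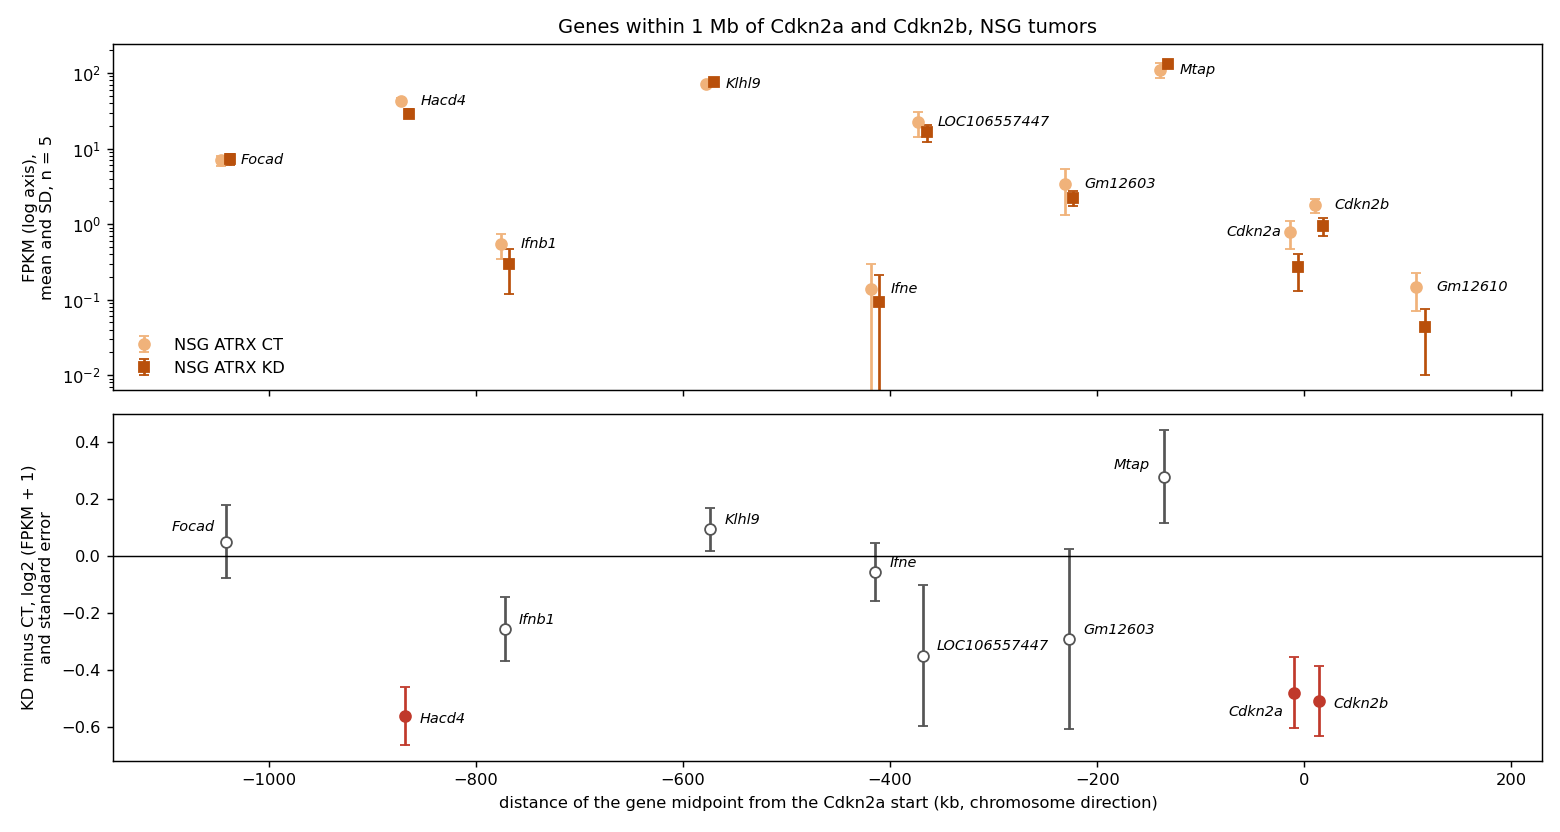
Genes within 1 Mb of *Cdkn2a* and *Cdkn2b* that averaged 0.1 FPKM or more over all tumors, shown in NSG tumors, by distance from the *Cdkn2a* start. Top, FPKM on a log axis (mean and SD, n = 5; bars that reach 0 are cut by the axis); bottom, ATRX KD minus ATRX CT on the log2 scale with the standard error, filled red where the test was passed. *Mtap*, at 110 and 133 FPKM, stands beside the low *Cdkn2a* and *Cdkn2b*, and *Gm12610* was under the filter of this comparison.

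The wider p53 network was described by lists of genes. Of 31 other p53 target genes, 1 was higher and 1 lower in NSG ATRX KD tumors, with a median log2 fold change of 0.04. That is a share near the 3.73% higher and 3.05% lower over all genes. *Gtse1*, which encodes a G2 and S phase protein that restrains p53, rose by 0.68 (SE 0.13, adjusted p = 0.0154 in limma), from 26.0 ± 3.98 to 42.4 ± 6.43 FPKM without overlap. *Ddb2*, a damage sensor of nucleotide excision repair, fell by 0.57 (SE 0.15, adjusted p = 0.0438 in limma), from 2.77 ± 0.401 to 1.58 ± 0.567 FPKM without overlap. None of 23 tested regulators and cofactors of p53 passed, and *Mdm4*, which encodes an MDM2 partner, was at 25.4 ± 5.55 and 17.0 ± 4.17 FPKM (adjusted p = 0.0857 in limma). *Ppp1r13l*, which encodes the p53 inhibitor iASPP, was at 4.07 ± 0.463 and 5.23 ± 0.386 FPKM (adjusted p = 0.0756 in limma).

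On the side of the cell cycle, none of 18 CDK inhibitors, cyclins, kinases, RB, and E2F genes passed in NSG mice. *Ccnd1*, a D cyclin that CDK4 and CDK6 bind, was at 184 ± 27.2 FPKM in ATRX CT and 231 ± 4.76 FPKM in ATRX KD tumors (adjusted p = 0.0736 in limma), and *Rb1* at 17.2 ± 0.903 and 14.7 ± 1.41 FPKM (adjusted p = 0.136 in limma). Of 12 proliferation genes, 3 were higher and 0 lower, where 3.73% of all genes were higher and 3.05% lower. All 12 had a log2 fold change above 0, and their median was 0.37 against −0.0014 over all genes. The mitotic kinase genes *Plk1* (0.66, adjusted p = 0.0164 in limma), *Aurkb* (0.47, 0.0254), and *Bub1* (0.40, 0.0477) rose. Among 11 tested genes of the BCL2 family, *Bok*, a relative of *Bax*, rose by 0.54 (adjusted p = 0.0110 in limma), from 29.5 ± 2.36 to 43.4 ± 3.63 FPKM. Of 5 tested relatives and partners of *Ccng1*, *Sesn2*, and *Eda2r*, none passed, and *Sesn1*, a relative of *Sesn2* and itself a p53 target, was at 23.8 ± 3.66 and 17.2 ± 3.66 FPKM (adjusted p = 0.0757 in limma).

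In Balb/c mice, 0 genes of any of these lists passed between ATRX KD and ATRX CT tumors. *Pmaip1*, which encodes the BH3-only protein NOXA, was at 2.90 ± 0.187 FPKM in ATRX CT and 4.40 ± 0.758 FPKM in ATRX KD tumors without overlap (adjusted p = 0.794 in limma). *Cd82*, a tetraspanin, was at 39.3 ± 4.49 and 29.2 ± 3.39 FPKM (adjusted p = 0.810 in limma), and *Bik*, a BH3-only gene, at 5.15 ± 1.31 and 12.5 ± 4.72 FPKM (adjusted p = 0.673 in limma).

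**Figure D4:**
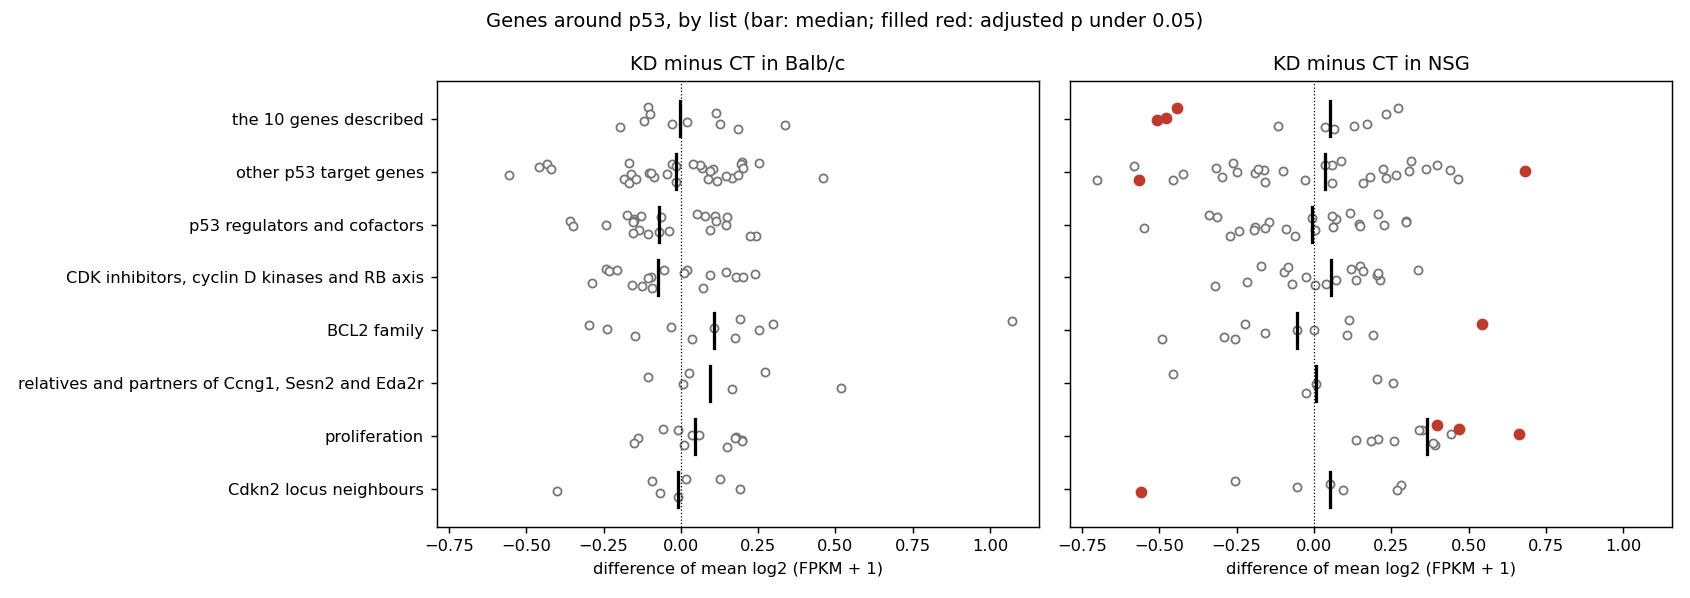
Difference of mean log2 (FPKM + 1), ATRX KD minus ATRX CT, for each tested gene of the lists around p53 in Balb/c (left) and NSG mice (right); the bar is the median and filled red points passed the test. The 12 proliferation genes all lie above 0 in NSG mice (median 0.37), and no gene passed in Balb/c mice.

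Whether the knock-down acted differently in the 2 hosts was tested by the interaction term with all 18 tumors fitted together. None of the 10 genes passed (adjusted p = 0.526 to 0.989 in limma), and 0 of 14803 genes passed (0%), with 1527 at an unadjusted p under 0.05. The lower *Eda2r*, *Cdkn2a*, and *Cdkn2b* in NSG mice are therefore not shown to be particular to that host. The difference between hosts in log2 fold change (Balb/c minus NSG) was 0.32 for *Eda2r* (95% interval −0.17 to 0.82), 0.38 for *Cdkn2a* (−0.23 to 0.99), and 0.31 for *Cdkn2b* (−0.33 to 0.95). It was −0.34 for *Trp53* (−0.71 to 0.03), the lowest adjusted p of the 10. No gene of the lists passed.

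The hosts were then compared for the same cells. Balb/c and NSG mice differ in strain background as well as in their immune cells, so strain and immune status cannot be told apart here. In ATRX CT tumors, *Eda2r* was lower in Balb/c mice and 0 of the 10 genes were higher, where 1.09% of 14828 genes were lower and 2.09% higher. *Eda2r* was at 20.9, 17.2, 19.2, and 11.1 FPKM in Balb/c tumors, all below the NSG tumors (27.7 to 33.5 FPKM). It was the 1 gene of the 10 without overlap in the deposited values (7.57% of all genes), and was lower by a log2 fold change of −0.83 (SE 0.16, adjusted p = 0.0208 in limma; exact permutation test, two-sided, p = 0.0159, the smallest possible). Its adjusted p in limma was 0.0631 without Balb/c mouse 43, and 0.0560, 0.0509, and 0.0606 without NSG mouse 1, 2, and 4, within 0.00514 to 0.0631 over all alternatives. *Bax* (146 ± 35.3 against 214 ± 32.3 FPKM), *Ccng1* (154 ± 29.2 against 237 ± 63.2 FPKM), and *Cdkn1a* (65.2 ± 11.0 against 91.2 ± 17.0 FPKM) did not pass, with adjusted p = 0.138, 0.182, and 0.151 in limma. With the trend along transcript length removed, *Cdkn1a* and *Bax* also separated the hosts, where 8.65% of all genes did, and neither passed (adjusted p = 0.0771 and 0.0709 in limma). *Ccng1* passed without NSG mouse 3 (adjusted p = 0.0424 in limma, within 0.0115 to 0.401 over all alternatives).

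In ATRX KD tumors, *Cdkn2a* was higher in Balb/c mice and 0 of the 10 genes were lower, where 2.80% of 14669 genes were higher and 0.839% lower. *Cdkn2a* was at 1.84, 0.965, 1.12, and 2.24 FPKM in Balb/c tumors, each above every NSG ATRX KD tumor (0.0773 to 0.411 FPKM). It was the 1 gene of the 10 without overlap (8.13% of all genes). The means were 1.54 ± 0.602 and 0.267 ± 0.136 FPKM (SD, n = 4 and 5), a ratio of 5.78, and the log2 fold change was 0.98 (SE 0.15, adjusted p = 0.00544 in limma; exact permutation test, two-sided, p = 0.0159, the smallest possible). This call held without any 1 tumor (adjusted p = 0.00362 to 0.0183 in limma). In ATRX CT tumors *Cdkn2a* was at 1.82 ± 1.17 and 0.780 ± 0.309 FPKM and did not pass (log2 fold change 0.60, 95% interval 0.10 to 1.10, adjusted p = 0.191 in limma). The Balb/c tumor of mouse 44 was at 3.57 FPKM, and leaving it out gave 0.34 on the log2 scale (limma adjusted p = 0.158, with 0.0665 to 0.322 across the alternatives). *Cdkn2b* was at 1.45 ± 0.660 in Balb/c and 0.943 ± 0.252 FPKM in NSG ATRX KD tumors (log2 fold change 0.30, −0.09 to 0.70), so the higher level was measured for *Cdkn2a* but was not resolved for its neighbour.

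*Eda2r* in ATRX KD tumors was at 10.7, 15.1, 20.7, and 16.1 FPKM in Balb/c mice against 20.3 to 23.7 FPKM in NSG mice. The Balb/c tumor of mouse 59 was the 1 that reached the NSG range, and the difference did not pass (log2 fold change −0.50, 95% interval −0.86 to −0.15, adjusted p = 0.133 in limma), while without this tumor it did (adjusted p = 0.0363 in limma, within 0.0363 to 0.285 over all alternatives). Over the 10 genes, 8 had a log2 fold change under 0 in Balb/c against NSG mice in each kind of cell, with medians of −0.26 in ATRX CT and −0.28 in ATRX KD tumors, against 0.01 and −0.02 over all genes. Of the 31 other p53 targets, 21 and 23 lay under 0, with medians of −0.13 and −0.17. One of them passed, *Trp53inp1*, an autophagy and apoptosis gene, at 8.19 ± 0.970 in Balb/c and 14.0 ± 2.45 FPKM in NSG ATRX CT tumors (adjusted p = 0.0274 in limma). In ATRX KD tumors 0 of the 31 passed, and *Aen*, a p53-induced nuclease gene, was at 29.4 ± 5.22 and 43.9 ± 6.59 FPKM (adjusted p = 0.0705 in limma). The other lists held 0 called genes in both host comparisons. Beside these values, T cell markers were higher in Balb/c tumors for 8 of 9 genes and NK cell markers for 9 of 9 in each kind of cell, with NK sums of 67.0 to 361 FPKM in Balb/c against 0.605 to 2.18 FPKM in NSG tumors. In ATRX CT tumors 2 of 10 endothelial markers and 1 of 5 B cell markers were also higher in Balb/c mice. There, 1 of 8 fibroblast and adipose markers was lower. In ATRX KD tumors 2 of 7 neutrophil markers and 1 of 10 endothelial markers were higher. Of all genes, 2.09% were higher and 1.09% lower in ATRX CT tumors, and 2.80% were higher in ATRX KD tumors. Slopes along transcript length ran from −0.10 to 0.19 in Balb/c and −0.15 to 0.10 in NSG ATRX CT tumors. In ATRX KD tumors they ran from −0.12 to 0.21 and −0.08 to 0.12. *Bax*, *Ccng1*, *Cdkn1a*, and *Eda2r* were lower where this slope was higher within groups, though their transcripts differ in length, so the 10 genes are not independent. The part of these cells and of the slope in the host differences was not tested.

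Within groups, the 10 genes varied together to different degrees. After subtraction of each group mean, *Ccng1* and *Bax* varied most alike among the 10 over the 18 tumors (Pearson r = 0.86), followed by *Eda2r* with *Bax* (0.79) and *Cdkn2b* with *Eda2r* (0.71). *Sesn2* varied most like *Trp53* (0.63) and opposite to *Ccng1* (−0.52), and *Cdkn2a* reached no more than 0.23 with any of the others. These values are descriptions over shared libraries. The same tumors differed in the slope along transcript length, with which *Bax* (−0.92), *Ccng1* (−0.87), *Cdkn2b* (−0.74), *Cdkn1a* (−0.72), and *Eda2r* (−0.70) were correlated, whereas *Sesn2* (0.14), *Trp53* (−0.16), and *Cdkn2a* (0.05) were not closely so. These correlations did not go by transcript length, which was 869 nt for *Bax* and 929 nt for *Cdkn2a*. The transcripts of *Ccng1* (3487 nt) and *Eda2r* (4789 nt) were the longest of the 10. Removal of the length trend therefore need not remove what these genes share with the slope. With the trend along length removed from each library, *Eda2r* passed in NSG mice upon knock-down (log2 fold change −0.49, adjusted p = 0.0154 in limma) and *Cdkn2b* did (−0.50, 0.0291), but *Cdkn2a* did not (−0.45, 0.0550).

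Among 12180 genes that averaged 1 FPKM or more, the gene that varied most like each was *Gtf3c5* for *Trp53* (Pearson r = 0.86), *Ppp3r1* for *Cdkn1a* (0.92), *4933412E12Rik* for *Mdm2* (0.90), *Atp5k* for *Ccng1* (0.98), and *Arpc3* for *Bax* (0.97). It was *Oxnad1* for *Bbc3* (0.93), *Wars* for *Sesn2* (0.95), *BC003331* for *Eda2r* (0.92), *Cebpd* for *Cdkn2b* (0.95), and *Nfxl1* for *Cdkn2a* (0.77). The r for *Cdkn2a* was the lowest of the 10, whereas by Spearman rho *Trp53* had the lowest value (0.56, against 0.71 for *Cdkn2a*). Each partner was picked as the highest r among 12180 genes over 18 tumors, so its r is high in part by selection. The slope along transcript length was not removed from these values, so genes that share it vary alike. Copies elsewhere in the genome could share reads with some of these genes, since 7.05% of the windows of 75 nt in *Cdkn1a* transcripts, 6.84% in *Bax*, 1.09% in *Trp53*, and 0.535% in *Mdm2* also occurred in transcripts of other genes, and 0 windows did for the 6 others.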

How the data were processed

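RNA of 18 K7M2 tumors was analysed in 4 groups of host and shRNA, taken from the sample labels. The authors prepared ribo-depleted stranded libraries, aligned paired reads to mm10 with STAR 2.6.0c, removed PCR duplicates, and took gene levels for RefSeq from Cufflinks 2.2.1. Their differential analysis used DESeq. The deposited values are log2 (FPKM + 1) per gene and tumor, and were converted back to FPKM for levels. The deposited annotation gave coordinates and transcript lengths. The matrix held 20970 entries, of which 92 were spike-ins and left out. The spacing of low FPKM values gave an estimate of depth at a fragment length of 160 nt (15150000 to 25600000 fragments, median 20425000). Only 34.0% to 37.9% of low values lay within 0.1 of a whole fragment (20% by chance), so whole reads were not recovered and no count test was run. The floor of 3 fragments covers counting error only.

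Groups were compared in R 4.3.3 with limma 3.58.1 (eBayes with trend) on log2 (FPKM + 1), for genes averaging 0.1 FPKM or more in the compared tumors, with Benjamini-Hochberg adjustment over all of them. A gene passed at an adjusted p under 0.05, with no fold threshold. Fold changes on this scale understate those of low genes. Each comparison used its own 2 groups and the interaction all 4. Single genes were also compared by exact permutation tests (scipy 1.17.1). The steps were tested on simulated data.

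The genes and lists were chosen with earlier results of these data known. Named from the lists were up to 3 passing genes with the largest change per comparison, or, where none passed, up to 2 with the smallest p, of which the text gives part. Also named were *Atrx*, genes within 1 Mb of the Cdkn2 locus, and the gene most like each of the 10. *Cop1*, *Castor1*, and *Trac* of the lists were not matched. Alternatives were a pseudocount of 0.1, median-ratio scaling, other filters, a fold of at least 2, library weights with a robust prior, all groups in 1 fit, removal of the trend along transcript length, and leaving out each tumor in turn.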

Additional observations from a re-analysis of the deposited data

Results flagged for a closer look

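In 3 of 40 groups of values (10 genes in 4 groups of tumors), 1 tumor lay far from the others by Dixon's criterion, and chance would give about 1 in 20 groups, or 2. *Trp53* in Balb/c ATRX KD tumors was at 79.3 FPKM in mouse 58, against 65.7 to 67.9 FPKM in the 3 others. *Cdkn2a* in Balb/c ATRX CT tumors was at 3.57 FPKM in mouse 44, against 1.11 to 1.38 FPKM, and leaving this tumor out took the log2 fold change between hosts from 0.60 to 0.34 (limma adjusted p = 0.158). *Cdkn2b* in NSG ATRX CT tumors was at 1.11 FPKM in mouse 5, against 1.83 to 2.03 FPKM, and without this tumor *Cdkn2b* fell by 0.60 on the log2 scale upon knock-down (adjusted p = 0.0276 in limma).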

How the results depend on the processing

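No gene of the 10 changed direction after a call under any alternative. Among the values of single genes, 888 kept their side of the threshold, 30 lost a call, and 10 gained one. Upon knock-down in NSG mice, the count of lower genes went from 3 to 2 with a mean of at least 1 FPKM, where *Cdkn2a* was not tested, to 2 with the length trend removed, to 1 with no filter on low values, to 0 with a fold of at least 2, to 0 with all 4 groups in 1 fit, and to 0 to 3 when 1 tumor was left out. With library weights, 3 genes were also higher (*Trp53*, *Cdkn1a*, and *Sesn2*). In Balb/c against NSG mice with ATRX CT cells, the count of lower genes went from 1 to 0 with a fold of at least 2, to 3 with library weights, and to 0 to 2 without 1 tumor, and that of higher genes from 0 to 1 with library weights. With ATRX KD cells, the count of higher genes went from 1 to 0 with a mean of at least 1 FPKM, where *Cdkn2a* was not tested, to 0 with a fold of at least 2, and to 2 with library weights. The count of lower genes went from 0 to 1 with library weights and to 0 to 1 without 1 tumor. The cause was not tested, except that a fold of at least 2 excludes smaller changes by construction. In Balb/c mice and for the interaction, the count stayed 0 of 10 under all alternatives.

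Over all genes, the counts moved further. Upon knock-down in NSG mice, 25 to 2950 genes were higher and 43 to 2464 lower over the settings with all tumors, and 90 to 1279 and 54 to 801 without 1 tumor. In Balb/c mice it was 0 to 5 and 0 to 17. Between hosts it was 131 to 1974 higher and 81 to 1316 lower with ATRX CT cells, and 165 to 1108 and 39 to 670 with ATRX KD cells. For the interaction it was 0 to 717 and 0 to 1268. Depth limits *Cdkn2a* most, at under 7 estimated fragments in each NSG ATRX KD tumor. No paired analysis was possible because the groups share no mouse numbers.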
